A study of Mus musculus with 12 samples.

Results

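Transcript levels of 10 genes of activin, Lefty and bone morphogenetic protein (BMP) signalling were followed across medullary thymic epithelial cells (mTECs) of the mouse. They form a list chosen by name with the measured fold changes between mTEC hi and mTEC lo already known, and all 10 were found by their identifiers among the 50600 genes of the deposited tables. They encode the activin subunits (Inhba, Inhbb), the activin antagonist follistatin and its relative (Fst, Fstl1), the Nodal antagonists Lefty1 and Lefty2, the ligands Bmp2, Bmp4 and Bmp7, and the BMP antagonist noggin (Nog). mTECs present self antigens to T cells that mature in the thymus. Polyadenylated RNA was sequenced in 6 libraries of mTECs with much MHC class II on the surface (mTEC hi) and in 6 of mTECs with little of it (mTEC lo). The mice were 6 to 8 weeks old and of the strain B6.B6CB-Psmb11tm1Smta, either Psmb11-/- (Psmb11-deficient), lacking the thymus-specific proteasome subunit beta5t, or Psmb11+/+ (WT).

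The groups with undisputed genotype were Psmb11-deficient mTEC hi (2 libraries), WT mTEC hi (2 libraries), Psmb11-deficient mTEC lo (2 libraries) and WT mTEC lo (2 libraries). In 4 more libraries, 2 of each cell type, title and source name (with the strain) contradict each other on the genotype, and these were used between the cell types but not in the main genotype contrasts. No further treatment is named for any group. The labels do not say whether libraries came from separate or pooled animals, and p-values therefore reflect only how these libraries varied, which may be technical. Gene reads ranged from 38791960 to 86793594 per library. Psmb11 was at 0.847 to 1.63 CPM (read counts per library size, scaled by TMM) in the 4 undisputed Psmb11-deficient libraries and at 7.51 to 12.2 CPM in the 4 undisputed WT libraries. Where the labels conflict, its level went with the title: the libraries titled knockout read 1.12 CPM (mTEC hi) and 1.26 CPM (mTEC lo), and those titled WT read 8.16 CPM (mTEC hi) and 7.10 CPM (mTEC lo). Of the mTEC marker genes, Aire was at a median of 1999 CPM in mTEC hi, against 18.3 CPM in mTEC lo, and the chemokine gene Ccl21a at 200.1 CPM in mTEC hi, against 3722 CPM in mTEC lo. The MHC class II genes H2-Aa and H2-Ab1 were higher in mTEC hi by less (log2 fold change 1.36 and 0.79).

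Activins are dimers of inhibin beta subunits that bind type II and type I receptor kinases and act through SMAD2 and SMAD3. Nodal uses the same SMADs and needs a coreceptor of the Cripto family. BMPs act through their own type I receptors and through SMAD1, SMAD5 and SMAD9. Secreted antagonists set the reach of each ligand: follistatin traps activins, Lefty proteins block Nodal, and noggin traps BMPs. In the thymus, BMP4 made by mesenchymal and endothelial cells is known to act on the epithelium.

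Because the genes were listed with the contrast of mTEC hi and mTEC lo known, their values in it are given as a description, without a test. All 10 passed the filter on low counts, Lefty2 and Nog through mTEC hi alone. Of the 10, 6 were higher and 4 lower in mTEC hi, and the 6 mTEC hi libraries did not overlap the 6 mTEC lo libraries for any. Among all 23923 genes tested, 82.1% differed at an adjusted p under 0.05 by edgeR (44.2% higher and 38% lower in mTEC hi), and 68.8% did not overlap. Lefty2, Nog, Inhba, Inhbb, Lefty1 and Bmp2 were higher in mTEC hi, and Fst, Fstl1, Bmp4 and Bmp7 were lower. The median log2 fold change of the 10 genes was 1.07, against 0.08 over all genes tested. In bulk libraries, fewer cells that make a transcript and less of it per cell cannot be told apart.

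**Figure D1:**
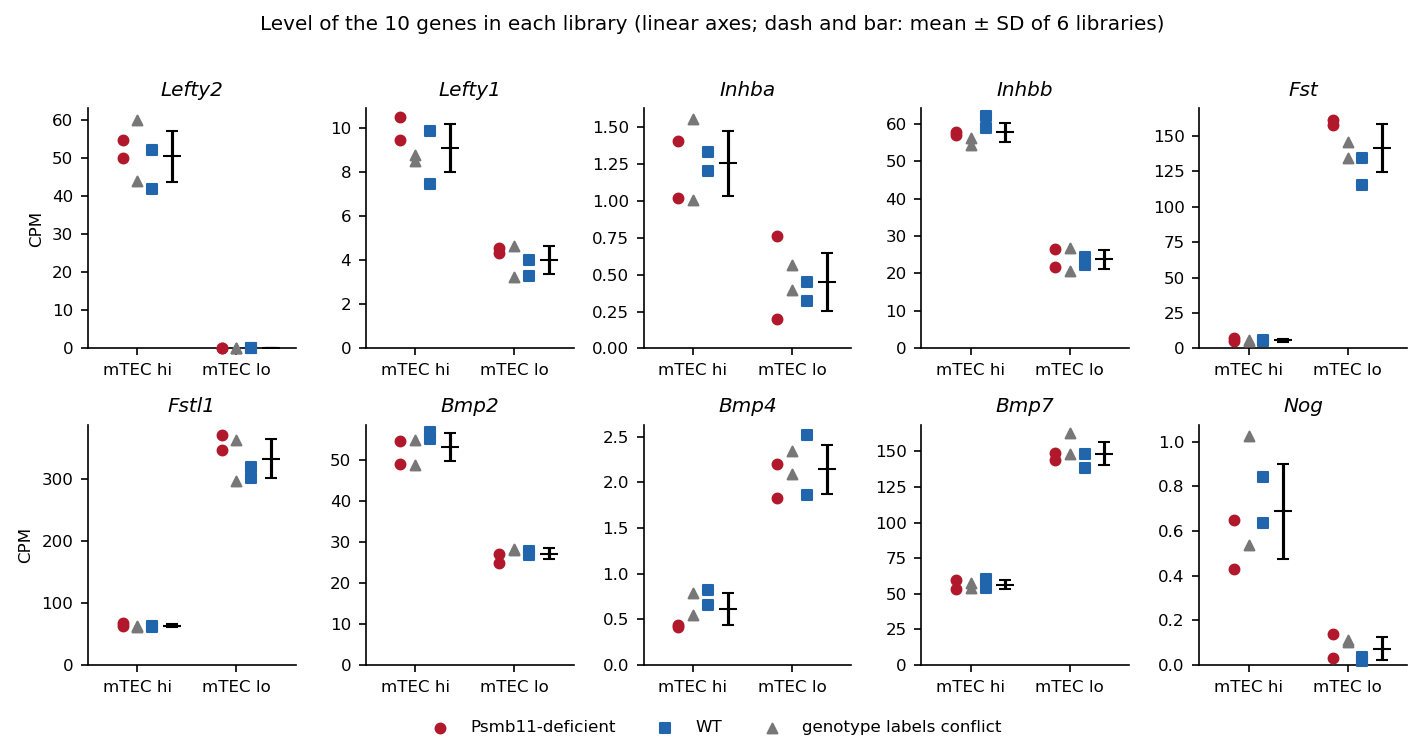
CPM of the 10 genes in each library, mTEC hi left of mTEC lo in every panel, on linear axes that start at 0 and differ between panels. Red circles are Psmb11-deficient libraries, blue squares WT libraries and grey triangles libraries with conflicting genotype labels, and the dash with its bar is the mean ± SD of 6 libraries. The cell types separate in every panel, from Lefty2 (41.8 CPM or more in mTEC hi, 0.170 CPM or less in mTEC lo) to Inhba (1.01 CPM or more in mTEC hi, 0.76 CPM or less in mTEC lo).

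Inhba encodes the beta A subunit of activin A (chromosome 13, 16011851 to 16031621, + strand, GRCm38) and Inhbb the beta B subunit of activin B (chromosome 1, 119415465 to 119422248, - strand). The 250 bases upstream of both genes, from RefSeq on GRCm38.p6, are shown because the subunits differ widely in level while both were higher in mTEC hi. Capitals mark the TATAAA motif.
Inhba, chr13:16011601-16011850, + strand: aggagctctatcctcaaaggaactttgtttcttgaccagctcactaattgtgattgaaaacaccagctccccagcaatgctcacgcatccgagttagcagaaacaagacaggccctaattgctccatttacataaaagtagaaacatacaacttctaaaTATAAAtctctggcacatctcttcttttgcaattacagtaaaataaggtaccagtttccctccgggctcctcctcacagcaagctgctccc
Inhbb, chr1:119422249-119422498, - strand: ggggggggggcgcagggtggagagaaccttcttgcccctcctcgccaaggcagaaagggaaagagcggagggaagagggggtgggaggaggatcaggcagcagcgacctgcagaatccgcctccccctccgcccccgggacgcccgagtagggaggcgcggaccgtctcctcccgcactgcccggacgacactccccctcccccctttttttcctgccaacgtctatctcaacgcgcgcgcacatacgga
The Inhba window holds 1 TATAAA match and 43.2% G and C, and the Inhbb window holds no match and 68% G and C. All motifs were searched on both strands. TATAAA is in 12.4% of 32851 mouse windows of the same length from RefSeq, and the median window has 52.4% G and C. Neither window holds CAGAC, a motif bound by SMAD3 and SMAD4 (42.2% of windows), nor GGCGCC, a motif bound by BMP SMADs (9.59% of windows), which says only that these letters are not in these 250 bases. RefSeq windows for Bmp4 and Fstl1 held none of the 3 motifs.

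Inhbb read 54.4, 57.4 and 62.0 CPM in mTEC hi (lowest, median and highest of 6 libraries), against 20.7, 23.4 and 26.7 CPM in mTEC lo. Every mTEC hi library was thus more than 2 times above every mTEC lo library, a log2 fold change of 1.28 (SE 0.065). Inhba read 1.01, 1.27 and 1.56 CPM in mTEC hi, against 0.20, 0.42 and 0.76 CPM in mTEC lo, a log2 fold change of 1.49 (SE 0.28). It rested on 51 to 148 reads per mTEC hi library and 13 to 44 reads per mTEC lo library, and its spread was the wider of the pair. Per length, Inhbb stood at a median of 22.6 TPM in mTEC hi, against 7.58 TPM in mTEC lo, and Inhba at 1.22 TPM in mTEC hi, against 0.345 TPM in mTEC lo, so the beta B subunit was the main activin transcript in both. GENCODE M21 places genes on the opposite strand over Inhba and Fst, and as the libraries do not keep the strand, reads of the partners cannot be told apart.

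Fst (chromosome 13, 114452290 to 114458951, - strand), a trap for activins, ran the other way. It read 4.91, 5.44 and 7.42 CPM in mTEC hi, against 115, 139.9 and 161 CPM in mTEC lo, a log2 fold change of -4.63 (SE 0.090). The lowest mTEC lo library was 15.6 times above the highest mTEC hi library. Fstl1 (chromosome 16, 37776873 to 37836514, + strand), a secreted glycoprotein related to follistatin that is not a strong activin trap, read 60.8, 62.1 and 67.6 CPM in mTEC hi, against 297, 333 and 372 CPM in mTEC lo (log2 fold change -2.40, SE 0.056). Set against each other in TPM, Inhba and Inhbb together were 4.69 to 8.20 times Fst in the mTEC hi libraries (median 7.10) and 0.090 to 0.130 times Fst in the mTEC lo libraries (median 0.109). Inhba and Inhbb transcripts together outnumbered Fst transcripts in all 6 mTEC hi libraries, and Fst transcripts outnumbered them in all 6 mTEC lo libraries. Inha, the inhibin alpha subunit gene, is outside this ratio. It was at a mean of 14.7 TPM in mTEC hi, against 23.3 TPM in mTEC lo (log2 fold change -0.89, SE 0.12). Which dimers the subunits formed was not measured. The follistatin-like gene Fstl3, also outside this ratio, went the other way from Fst (log2 fold change 1.57, SE 0.16). Its mean was 9.19 TPM in mTEC hi, above the Fst mean of 3.605 TPM there, and 2.745 TPM in mTEC lo. Inha and Fstl3 were named after their values were seen. The ratio thus covers Fst alone among possible antagonists. Transcripts are not protein, and no level of secreted activin or follistatin was measured.

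Fst and Fstl1 are also made by mesenchymal cells, so markers of other cells stand beside these values. The 12 fibroblast or pericyte markers summed to 930.0 to 979 CPM in mTEC hi, against 1154 to 1263 CPM in mTEC lo, with 5 markers higher, 6 lower and none at 0 in any library. Most of the sum was Rgs5, a pericyte gene at a mean of 649 CPM in mTEC hi, against 662 CPM in mTEC lo, and the other 11 markers summed to 283 to 312 CPM in mTEC hi, against 490.4 to 635 CPM in mTEC lo. Dcn, Fbn1 and Pdgfra were lower in mTEC hi (log2 fold change -2.19, -2.21 and -1.88), and Pdgfrb and Col1a1 were higher (3.49 and 3.34). Of 7 endothelial markers none was higher and 3 were lower, and their sums were 53.5 to 77.7 CPM in mTEC hi, against 55.3 to 85.6 CPM in mTEC lo. All 6 B cell markers and all 8 markers of dendritic cells or macrophages were higher in mTEC hi, with sums of 69.1 to 73.6 CPM and 84.3 to 95.2 CPM in mTEC hi, against 11.5 to 17.7 CPM and 13.5 to 17.2 CPM in mTEC lo. The 8 markers of cortical epithelial cells (cTECs) summed to 425 to 484 CPM in mTEC hi, against 1876 to 2362 CPM in mTEC lo, with 3 markers higher and 4 lower. Most of that difference was Ctsl, at a mean of 204 CPM in mTEC hi, against 1717 CPM in mTEC lo. The other 7 markers summed to 228 to 262 CPM in mTEC hi, against 368 to 463 CPM in mTEC lo. Ctsl, Cxcl12, Ackr4 and Prss16 were lower (log2 fold change -3.08, -3.26, -2.92 and -0.25), and Dll4, Enpep and Ly75 were higher (2.22, 1.15 and 0.23). Of 11 thymocyte markers 6 were higher and none lower, with sums of 71.2 to 182 CPM in mTEC hi, against 35.5 to 92.0 CPM in mTEC lo. Of these lists only the B cell gene Ms4a1 was at 0 in any library, and that in mTEC lo. The part of these cells in the values of the 10 genes was not tested.

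Lefty1 and Lefty2 encode closely related inhibitors of Nodal signalling and lie 35918 bases apart on chromosome 1, both on the + strand (Lefty2 at 180893108 to 180899103, Lefty1 at 180935022 to 180938400). Their coding sequences have 1104 bases each and are 91.8% identical, which bears on whether reads can be assigned to one of them. The most different 90 bases, both in the first coding exon, are shown with the 27 differing bases in capitals (GRCm38, GENCODE M21).
Lefty2, chr1:180893218-180893307: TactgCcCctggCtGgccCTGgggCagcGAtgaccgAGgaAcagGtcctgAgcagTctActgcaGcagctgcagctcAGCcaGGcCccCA
Lefty1, chr1:180935144-180935233: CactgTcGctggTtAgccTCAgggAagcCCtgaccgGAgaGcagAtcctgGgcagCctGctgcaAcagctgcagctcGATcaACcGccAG
Identity was 77.6% in coding exon 1 and between 94.3% and 98.0% in the other 3. Of all windows of 75 bases in the GENCODE transcripts of 2473 bases (Lefty2) and 1620 bases (Lefty1), 7.21% of those in Lefty2 and 11.2% of those in Lefty1 occur in both genes, so most windows name 1 gene.

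Lefty2 read 41.8, 51.0 and 59.9 CPM in mTEC hi, against 0.0536, 0.101 and 0.170 CPM in mTEC lo. All 6 mTEC lo libraries together held 37 Lefty2 reads, from 3 to 9 each, while no mTEC hi library held fewer than 2209. The log2 fold change was 8.85 (SE 0.15), the largest of the 10 genes. With so few mTEC lo reads its error depended on the method, and DESeq2 gave 8.93 (SE 0.26). Taken within each genotype class, the log2 ratio of mean CPM was 8.72 in Psmb11-deficient, 9.17 in WT and 8.77 in the libraries with conflicting labels. Lefty1 read 7.44, 9.11 and 10.5 CPM in mTEC hi, against 3.24, 4.16 and 4.66 CPM in mTEC lo (log2 fold change 1.18, SE 0.11). Of the summed Lefty TPM, Lefty2 made up 73.6% to 77.2% in mTEC hi and 0.348% to 4.84% in mTEC lo. The neighbouring genes therefore differed in the size of the contrast: Lefty1 was the main Lefty transcript of mTEC lo, and Lefty2 that of mTEC hi.

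Among the BMP ligands, Bmp2 (chromosome 2, 133552159 to 133562885, + strand) read 48.9, 54.6 and 56.9 CPM in mTEC hi, against 24.8, 27.4 and 28.4 CPM in mTEC lo, a log2 fold change of 0.97 (SE 0.051). Bmp7 (chromosome 2, 172868012 to 172940321, - strand) went the other way, with 53.5, 55.8 and 60.3 CPM in mTEC hi and 138.5, 148 and 163 CPM in mTEC lo (log2 fold change -1.39, SE 0.051). Bmp4 (chromosome 14, 46383520 to 46390669, - strand) was low in both, at 0.42, 0.60 and 0.82 CPM in mTEC hi and 1.83, 2.15 and 2.52 CPM in mTEC lo (log2 fold change -1.84, SE 0.19). Genes on the opposite strand that overlap Bmp4, Gm15222 and Gm15217, held 41 and 6 reads over all 12 libraries. The summed TPM of the 3 ligands was 47.8 to 55.5 in mTEC hi and 59.9 to 72.8 in mTEC lo, a smaller fold difference than that of any single ligand. Bmp7 made up a median of 50.1% of this sum in mTEC hi and 81.9% in mTEC lo.

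Nog (chromosome 11, 89300638 to 89302332, - strand), the gene of the BMP trap noggin, read 0.43, 0.64 and 1.02 CPM in mTEC hi, against 0.0179, 0.0697 and 0.138 CPM in mTEC lo. It was near the limit of detection, with 27 to 71 reads per mTEC hi library and 1 to 8 reads per mTEC lo library. The log2 fold change was 3.22 (SE 0.41).

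Ordered by median TPM, mTEC hi ran from Lefty2 (37.7 TPM) and Fstl1 (29.2 TPM) through Bmp7 (26.1 TPM), Bmp2 (25.6 TPM) and Inhbb (22.6 TPM) to Lefty1 (12.2 TPM), Fst (3.49 TPM), Inhba (1.22 TPM), Bmp4 (0.755 TPM) and Nog (0.645 TPM). The ranges of Bmp7, Bmp2 and Inhbb overlapped from each to the next, as did those of Inhba, Bmp4 and Nog, and the other neighbours did not overlap. In mTEC lo the order was Fstl1 (122 TPM), Fst (72.0 TPM), Bmp7 (54.3 TPM), Bmp2 (10.3 TPM), Inhbb (7.58 TPM), Lefty1 (5.52 TPM), Bmp4 (1.65 TPM), Inhba (0.345 TPM), Lefty2 (0.090 TPM) and Nog (0.060 TPM). There only Inhba, Lefty2 and Nog overlapped with a neighbour. Lefty2 thus held the first place in mTEC hi and the ninth in mTEC lo, and Fst the seventh place in mTEC hi and the second in mTEC lo.

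**Figure D2:**
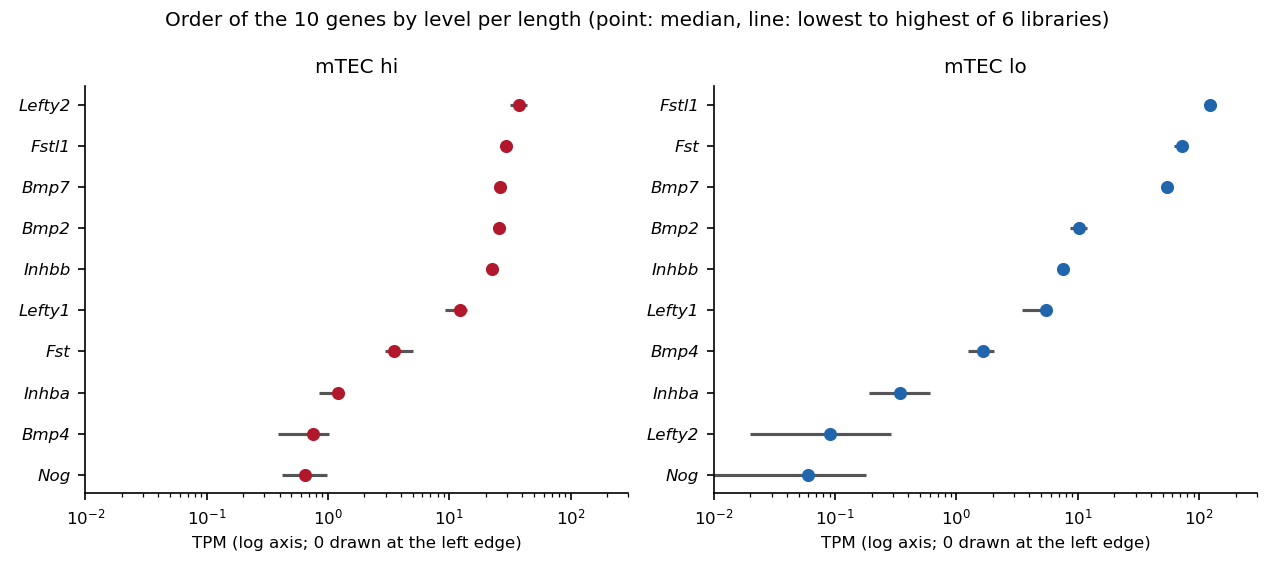
TPM of the 10 genes in mTEC hi (left) and mTEC lo (right) on a log axis, each panel ordered by its own median. Points are medians and lines run from the lowest to the highest of 6 libraries. Lefty2 leads mTEC hi at 37.7 TPM and stands at 0.090 TPM in mTEC lo, where Fstl1 and Fst lead.

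The genotype comparison asked whether any of the 10 genes differed between Psmb11-deficient and WT libraries of the same cell type. By edgeR, none was called at an adjusted p under 0.05 in mTEC hi or in mTEC lo. None was called for the difference of the genotype effect between the cell types either. Estimates were above WT for 4 of the 10 in mTEC hi and for 8 in mTEC lo. The difference, mTEC hi minus mTEC lo, was below 0 for all 10 (median -0.127, against 0.0015 over all genes tested). These estimates share the same 8 libraries, and their common direction was not tested. Over all 26642 genes tested, 0.00375% were called in mTEC hi (1 gene, Psmb11), 0.015% in mTEC lo (4 genes) and 0% for the difference between the cell types. At an unadjusted p under 0.05 there were 0 of the 10 genes in mTEC hi (background 3.45%), 2 in mTEC lo (background 11.3%) and 0 for the difference between them (background 4.41%). DESeq2 called 3 genes in mTEC hi, 147 in mTEC lo and 4 for the difference, none of them among the 10. The 2 Psmb11-deficient libraries did not overlap the 2 WT libraries for 3 of 10 genes in mTEC hi and for 3 in mTEC lo, and 36.2% of all genes did so in each cell type. The count of called genes rested on single libraries. In mTEC lo it was 263 and 323 without Psmb11-deficient mTEC lo replicates 1 and 2, 18 and 22 without WT mTEC lo replicates 2 and 3, and 1 without either WT mTEC hi library. For the difference between the cell types, leaving out the same mTEC lo libraries gave 49, 14, 5 and 6 calls. In mTEC hi it was 0 without Psmb11-deficient mTEC hi replicate 1 or WT mTEC hi replicate 2, and 2 without Psmb11-deficient mTEC hi replicate 2. None of the 10 genes was called in any of these fits.

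Fst in mTEC lo had the lowest p of the 10. It read 158 and 161 CPM in Psmb11-deficient libraries, against 115 and 134 CPM in WT (log2 fold change 0.35, SE 0.14, edgeR adjusted p = 0.381). The libraries with conflicting labels read 145 CPM under the knockout title and 135 CPM under the WT title, between the undisputed groups. Among 17 alternatives Fst was called in 1, with no filter on low counts (edgeR adjusted p = 0.0458, and up to 0.838 over the 17). With all 12 libraries grouped by the title, which the Psmb11 levels follow, its log2 fold change was 0.27 (SE 0.11, edgeR adjusted p = 0.294). It was 0.21 with genotype from the source name, which they go against (edgeR adjusted p = 0.838), and 0.22 without WT mTEC lo replicate 2. Fstl1 in mTEC lo read 346 and 372 CPM in Psmb11-deficient libraries, against 319 and 302 CPM in WT (log2 fold change 0.20, SE 0.086, edgeR adjusted p = 0.401). The mTEC lo libraries with conflicting labels read 363 CPM of Fstl1 under the knockout title and 297 CPM under the WT title. Over the 17 alternatives its log2 fold change ran from 0.05 to 0.26.

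In mTEC hi the lowest p was that of Bmp4, at 0.42 and 0.43 CPM in Psmb11-deficient libraries and 0.65 and 0.82 CPM in WT (log2 fold change -0.77, SE 0.37, edgeR adjusted p = 1). These libraries held 20 to 55 Bmp4 reads each. For Fst in mTEC hi the values were 7.42 and 4.97 CPM in Psmb11-deficient libraries and 4.91 and 6.08 CPM in WT, so the genotypes overlapped. Lefty2 in mTEC hi overlapped as well, with 54.7 and 49.9 CPM in Psmb11-deficient libraries and 41.8 and 52.1 CPM in WT (log2 fold change 0.17, SE 0.13). Inhbb, Bmp2 and Bmp7, the best measured ligand genes, had log2 fold changes between -0.11 (Bmp2 in mTEC hi) and 0.05 (Inhbb in mTEC lo), with SE of 0.089 to 0.106. The largest error was that of Nog in mTEC lo (log2 fold change 1.54, SE 1.02), which rested on 2 and 8 reads in the Psmb11-deficient libraries and 1 and 2 reads in the WT libraries. All 11 thymocyte markers were above WT in both cell types without a call, with sums of 182 and 81.7 CPM in Psmb11-deficient mTEC hi, against 73.2 and 76.3 CPM in WT mTEC hi, and 92.0 and 60.2 CPM in Psmb11-deficient mTEC lo, against 39.6 and 35.5 CPM in WT mTEC lo. Their part in the genotype values was not tested.

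**Figure D3:**
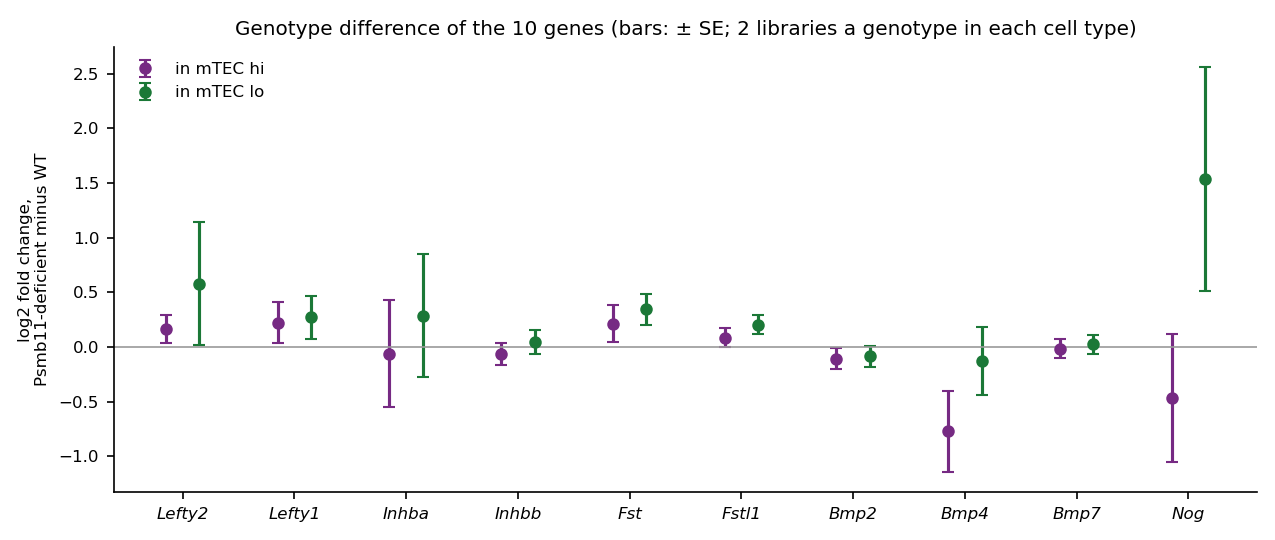
Log2 fold change of the 10 genes, Psmb11-deficient minus WT, in mTEC hi (purple, left of each pair) and mTEC lo (green), with bars of ± SE from the edgeR fit of 8 libraries. The widest bar is that of Nog in mTEC lo (1.54, SE 1.02), and none of the 20 values passed an adjusted p under 0.05.

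The rest of the pathway was read from 7 lists by role, 93 genes in all, of which 89 could be tested in mTEC hi against mTEC lo. By edgeR, 81 of them differed (35 higher, 46 lower in mTEC hi), or 91.0% against 82.1% of all genes. Enough reads in 1 cell type sufficed to pass the filter, and a gene nearly absent from the other could be called in only 1 direction. The 13 receptor genes were mostly lower, with 10 lower and 2 higher (median log2 fold change -1.33, against 0.08 over all genes). Tgfbr2, the type II receptor of TGF-beta, was at 8.53 to 11.7 CPM in mTEC hi, against 81.9 to 102 CPM in mTEC lo (log2 fold change -3.22, SE 0.079, edgeR adjusted p = 3.7e-16). Bmpr1b, a type I BMP receptor, was also lower (-2.52, SE 0.11, adjusted p = 7.6e-13). The exception of large size was Acvr1c, a type I receptor for Nodal and activin B, at 8.55 to 10.7 CPM in mTEC hi, against 0.447 to 0.553 CPM in mTEC lo (4.27, SE 0.12, adjusted p = 1.9e-15).

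Of 5 tested coreceptor genes 3 were higher and 2 lower. Tdgf1, which encodes the Nodal coreceptor Cripto that Lefty proteins can bind, was at 9.53 to 13.0 CPM in mTEC hi, against 0.0357 to 0.342 CPM in mTEC lo (log2 fold change 5.90, SE 0.23, edgeR adjusted p = 1.8e-13). Tdgf1 passed the filter through mTEC hi alone, as did Nodal, and both could only be called higher. The BMP coreceptors Rgma (-3.86, SE 0.091) and Rgmb (-1.51, SE 0.055) were lower. Nodal, which was chosen for mention after its values were seen, was at 2.41 to 3.85 CPM in mTEC hi, against 0.0173 to 0.145 CPM in mTEC lo (5.13, SE 0.28, adjusted p = 1.5e-11). Other genes that carry Nodal and activin signals, also named after their values were seen, were lower in mTEC hi: the type I receptor gene Acvr1b (-1.19, SE 0.063), the type II receptor genes Acvr2a (-2.002, SE 0.064) and Acvr2b (-1.31, SE 0.12), and Smad3 (-1.01, SE 0.052). Smad2 (-0.22, SE 0.044) was lower under TMM but at 0.07 without a call when scaled by library size alone. The genes of this pathway thus did not move in one direction.

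Among the 24 tested ligand genes outside the 10, 17 were higher and 3 lower in mTEC hi (median log2 fold change 3.52). Some of them passed the filter through mTEC hi alone and could only be called higher. Examples are Nodal, Bmp10 and Gdf7, with 32, 4 and 4 reads in mTEC lo. Gdf3, Gdf10 and Bmp5 are others, with 74, 20 and 13 reads there. The count of higher genes and the median therefore follow in part from the filter. Gdf3, a relative of Nodal in function, was at 25.7 to 28.2 CPM in mTEC hi, against 0.124 to 0.322 CPM in mTEC lo (log2 fold change 6.96, SE 0.13, edgeR adjusted p = 2e-17). Gdf10 (7.09, SE 0.21) and Bmp5 (5.73, SE 0.49) were also higher, and Bmp5, with 13 reads in mTEC lo, was at 7.37 without Psmb11-deficient mTEC lo replicate 2. The remaining inhibin beta subunit genes, Inhbc and Inhbe, were without reads in the gene counts of mTEC lo and were at least 41.4-fold and 186-fold higher in mTEC hi, taking 3 reads in the 6 mTEC lo libraries together as the floor. Gdf1 had no read in the gene counts of any library, while RSEM gave it a mean of 0.497 TPM in mTEC hi and 0.15 TPM in mTEC lo. Mature mTECs are known for transcribing many genes of other tissues at low levels.

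Of 15 tested antagonist genes 9 were higher and 6 lower (median log2 fold change 0.73). The largest changes were those of Fstl5, a follistatin-like gene, at 8.56 to 11.98 CPM in mTEC hi, against 0 to 0.188 CPM in mTEC lo (log2 fold change 7.47, SE 0.29, edgeR adjusted p = 1.3e-13), Sost (6.06, SE 0.21), whose product sclerostin is best known as an inhibitor of WNT signalling, and Chrdl2 (4.65, SE 0.22), a chordin relative. Fstl5, with 19 reads in mTEC lo, was at 8.20 without the mTEC lo library of conflicting labels that is numbered 1. Fstl5, Sost and Chrdl2 passed the filter through mTEC hi alone and could only be called higher. The list moved in both directions, and its members bind different ligands.

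The intracellular and target genes were lower more often than higher. Of 8 SMAD genes 6 were lower and 1 was higher (median log2 fold change -1.12), with the inhibitory SMAD genes Smad6 (-2.38, SE 0.075) and Smad7 (-2.06, SE 0.066) and the BMP SMAD gene Smad9 (-1.53, SE 0.11) changing most. Of 14 tested target and feedback genes 13 were lower and 1 was higher (median -1.89). Id1, a direct BMP target, was at 10.8 to 13.1 CPM in mTEC hi, against 156.8 to 223 CPM in mTEC lo (log2 fold change -3.89, SE 0.081, edgeR adjusted p = 5.5e-17). Tgfbi (-3.32, SE 0.067) and Ccn2 (-2.90, SE 0.12), which TGF-beta induces in many cells, were lower as well. Many signals other than BMP and TGF-beta also act on these genes, and no SMAD activity was measured.

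Among 10 genes of proteases and latency proteins 6 were lower and 2 higher (median log2 fold change -0.78). The latent TGF-beta binding proteins Ltbp3 (-3.48, SE 0.059) and Ltbp4 (-2.98, SE 0.076) and the proprotein convertase gene Pcsk6 (-2.66, SE 0.10) changed most. Scaling by library size alone moved the median of all genes to 0.37 and the share of called genes that were higher in mTEC hi to 67.0%, from 53.8% under TMM. The whole set then had 41 genes higher and 44 lower, and its median was 0.07 in place of -0.22. Under that scaling 10 receptor genes, 5 SMAD genes, 12 target genes and 6 protease or latency genes were lower, and 19 ligand genes were higher.

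**Figure D4:**
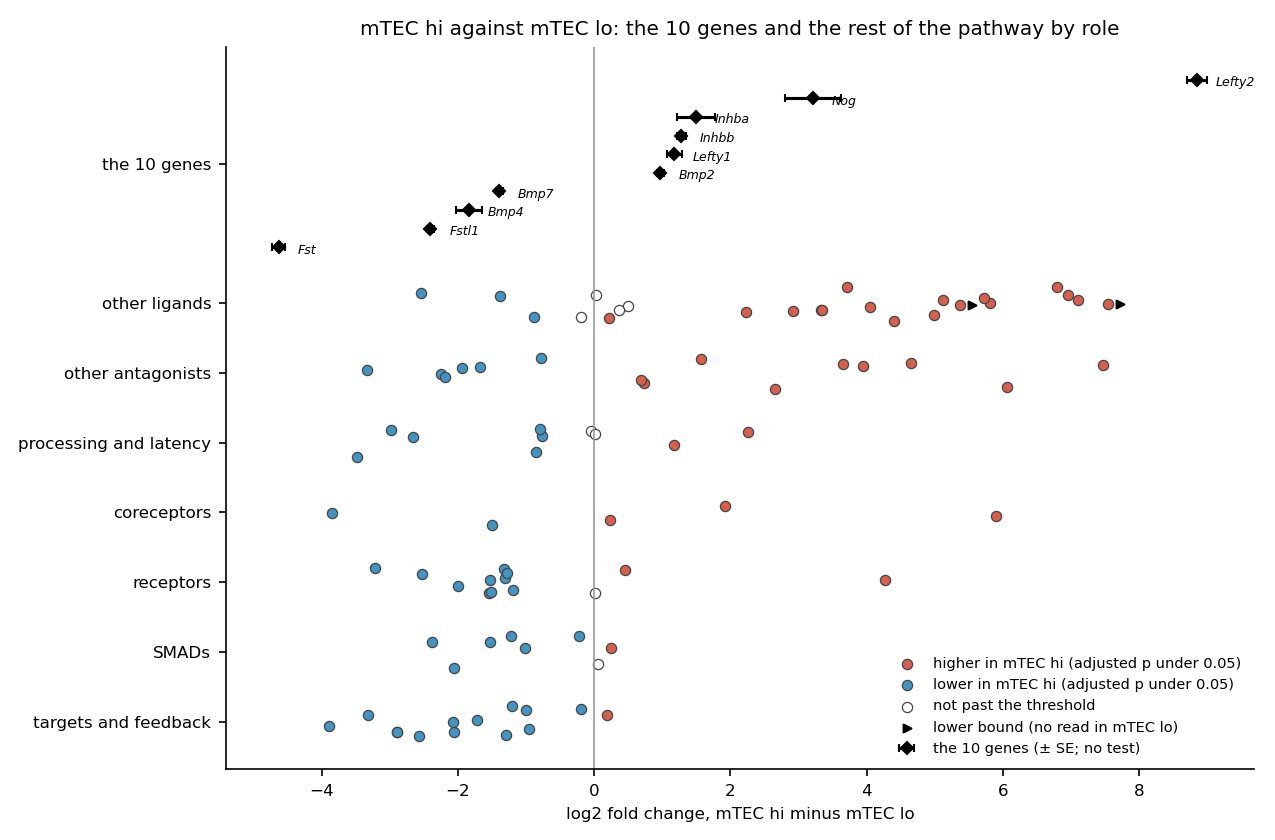
Log2 fold change of mTEC hi minus mTEC lo for the 10 genes (diamonds with ± SE, named, no test) and for the other tested genes of the pathway by role (1 circle a gene). Red and blue circles passed an edgeR adjusted p under 0.05 and open circles did not, and arrowheads mark lower bounds where mTEC lo had no read. Other ligands lie mostly to the right (17 higher, 3 lower), and receptors, SMADs and targets mostly to the left (10, 6 and 13 lower). Genes nearly absent from mTEC lo passed the filter through mTEC hi alone and could lie only to the right. DESeq2 gave Lefty2 an SE of 0.26, wider than the bar shown.

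Between genotypes, none of 92 tested pathway genes was called by edgeR or by DESeq2 in either cell type or for the difference between them. At an unadjusted p under 0.05 there were 1 in mTEC hi (1.09%, against 3.45% of all genes), 11 in mTEC lo (8 above and 3 below WT, 11.96%, against 11.3% of all genes) and 6 for the difference (6.52%, against 4.41% of all genes). The share in mTEC lo was thus close to that of all genes. Pmepa1, a feedback gene of TGF-beta signalling, had the lowest p in mTEC lo, at 67.0 and 74.5 CPM in Psmb11-deficient libraries, against 58.4 and 50.4 CPM in WT (log2 fold change 0.37, SE 0.094, edgeR adjusted p = 0.208). In mTEC hi it was Sostdc1, a BMP and WNT antagonist gene, at 10.96 and 9.07 CPM in Psmb11-deficient libraries, against 7.47 and 8.29 CPM in WT (0.36, SE 0.16, edgeR adjusted p = 1). Bmp5 and Pmepa1 in mTEC lo were called with no filter on low counts, and Bmp5 also without Psmb11-deficient mTEC lo replicate 1.

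Across the 12 libraries, the patterns nearest to that of Lefty2 among 10994 genes of at least 10 CPM were those of the kallikrein pseudogene Klk2-ps, the vascular addressin gene Madcam1 and Lrrc15. Their root mean square differences of centred log2 CPM from Lefty2 were 0.199, 0.231 and 0.278. Nearest to Fst were Mgp (matrix Gla protein), the Hedgehog coreceptor gene Boc and Ccl21a, at 0.174, 0.183 and 0.222. Mgp read a median of 22.03 CPM in mTEC hi, against 581 CPM in mTEC lo, and Madcam1 45.7 CPM in mTEC hi, against 0.172 CPM in mTEC lo. In mTEC lo the medians of Lefty2, Klk2-ps, Madcam1 and Lrrc15 were 0.101, 0.188, 0.172 and 0.257 CPM. All lie below the 0.5 CPM added before the log. This likeness is a description over the libraries of both cell types, and it follows in large part their contrast, known when the genes were listed.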

How the data were processed

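RNA sequencing libraries of mTEC hi and mTEC lo, 6 each, were analysed; cortical epithelial cells and thymocytes named by the series were not analysed here. Per the labels' protocols, TRIzol and an RNeasy kit served for extraction and a TruSeq kit for library preparation. The authors deposited read counts per gene as whole numbers without normalisation, once for both strands together and once for each strand, and from RSEM expected counts and TPM. Per the submitters' processing notes, CASAVA 1.8.2, STAR 2.5.1b and RSEM 1.2.28 were used and the build is named GRCh38, although the gene identifiers are mouse identifiers. The annotation counted is not given in sources used here. Each strand column held equal shares of the reads (0.504 to 0.508 for the first), so counts over both strands were taken. The 4 rows that name no gene were left out, among them reads in no feature (7.42% to 15.8% of all reads in the table) and multimapping reads (6.14% to 8.50%). RSEM totals were 0.507 to 0.535 of the gene reads. Of 50600 identifiers 50376 were matched to symbols in GENCODE M21, whose coordinates on GRCm38 are given.

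The filter was filterByExpr with a minimum count of 10 and a minimum total of 15, with cell type as the group for the contrast of cell types. TMM scaling and the quasi-likelihood F test of edgeR 4.0.16 (R 4.3.3) followed, with p-values adjusted by Benjamini-Hochberg over all genes tested at 0.05. All 12 libraries entered the contrast of cell types, with the genotype class as a covariate. Genotypes were contrasted within each cell type, and between cell types as an interaction, in a fit of the 8 undisputed libraries as 4 groups, which leaves 4 residual degrees of freedom. The SE is the size of the log2 fold change divided by the square root of F. It can understate the error of genes with few reads in 1 cell type, such as Lefty2. TPM served for levels between genes. The fits were run on simulated counts in which few genes differed, unlike the contrast of cell types here, so that run does not bear on the scaling. The 10 genes and the lists were chosen with earlier results of these data known. By the rule for named genes, each list gives the 3 called genes that changed most and average 1 CPM or more, with the gene of lowest p between genotypes. For likeness, genes that average 10 CPM or more were compared by log2(CPM + 0.5), leaving out predicted genes. Alternatives were RLE size factors, library size alone, no filter, RSEM expected counts rounded to whole numbers, DESeq2 1.42.0, each library left out, replicate blocks, the 8 undisputed libraries, genotype from the title or source name, and each cell type fitted alone. Precision is limited by reads per gene, from 1 read (Nog) upward, and by 2 libraries per genotype.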

Additional observations from a re-analysis of the deposited data

Results flagged for a closer look

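Fstl1 in Psmb11-deficient mTEC hi replicate 1 read 67.6 CPM, and the nearest of the other 5 mTEC hi libraries read 62.3 CPM. The gap was 0.777 of the range of the 6 libraries, above the critical value of 0.625. Of 20 groups of 6 libraries examined for the 10 genes this was the only one with a library apart, and chance sets apart about 1 in 20.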

How the results depend on the processing

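The log2 fold changes of the 10 genes between mTEC hi and mTEC lo kept their direction under all 20 alternatives, and 194 of 200 recomputed values moved by less than the spread between libraries. The other 6 moved under scaling by library size alone (Fst -4.34, Fstl1 -2.12, Bmp7 -1.11, Bmp2 1.25, Lefty1 1.46, Inhbb 1.57). Without each library in turn 19337 to 20129 genes differed between the cell types, and 80 to 84 pathway genes. For the genotypes in mTEC hi, 42 genes were called with no filter on low counts, 3 with RSEM expected counts, 3 with DESeq2, 0 with genotype from the source name, 2 with each cell type fitted alone, and 0 to 2 without each library. In mTEC lo the numbers were 660 with no filter, 147 with DESeq2, 9 with library size alone, 2 with genotype from the source name, 1 with mTEC lo fitted alone, and 1 to 323 without each library. For the difference between the cell types they were 141 with no filter, 2 with RSEM, 4 with DESeq2, and 0 to 49 without each library. With a library left out, the lone library of its group is assumed to vary like the other groups. A replicate block on the title number gave 45 called genes in mTEC lo and 7 for the difference between the cell types, and changed no other count by over 1.5 times. The numbers were not taken as pairs: the deviations of mTEC hi and mTEC lo libraries of the same title correlated at 0.0091 to 0.239, with every pair above 0.1 required. Among single genes between genotypes, 83 of 85 recomputed values kept their side of the threshold, and Fst (adjusted p = 0.0458) and Pmepa1 (adjusted p = 0.0420) in mTEC lo passed with no filter on low counts, where over all alternatives the adjusted p reached 0.838 for both. The cause of these differences was not tested. In mTEC lo, Nog rested on 1 to 8 reads per library, Lefty2 on 3 to 9 and Inhba on 13 to 44, which limits the precision of their values.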
